A study of Homo sapiens with 118 samples.

Results

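The genes described here are 9 markers of bile duct cells and hepatic progenitors, SOX9, SPP1, EPCAM, CLDN4, CFTR, GGT1, PROM1, SOX4 and CD24. They were chosen by name, with earlier results of these data known. Every row of the count table was taken whose name, without the probe number at its end, equals one of these symbols. Of the 9 genes, 8 had a row, and CD24 was not analysed here. The 8 genes had 9 probe rows, because GGT1 had 2, out of 22068 rows for 19470 gene symbols in all.

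Differentiated HepaRG cells, an established human liver line, were exposed for 72 hours to 1 of 8 histone deacetylase (HDAC) inhibitors at 5 concentrations, C1 (lowest) to C5 (highest), with the chemical renewed each day. Expression was measured with TempO-Seq, which counts ligated pairs of detector probes by sequencing, in 118 libraries of 40 groups. There were 3 libraries in 38 groups, 1 from each of 3 HepaRG batches, and 2 libraries, without batch 3, in panobinostat C3 and trichostatin A C4. Libraries of scriptaid, tacedinaline and vorinostat were on plate E and those of the other 5 chemicals on plate H, so that plate and chemical cannot be told apart. The cells in every group shared the same line, exposure time and renewal. The inhibitors and their highest concentrations were apicidin, a cyclic peptide (0.86 µM), the benzamides mocetinostat (3.9 µM) and tacedinaline (44 µM), the hydroxamic acids panobinostat (0.084 µM), scriptaid (94.5 µM), trichostatin A (1.5237 µM) and vorinostat (23.5 µM), and valproic acid, a branched fatty acid. For valproic acid the dose labels ran from 100.478 to 3038, in a unit that the sources do not settle. The top concentrations were therefore not matched between chemicals. Solvent-control libraries were not used here, and C1 of the same chemical was the reference, so that changes present from C1 on could not be detected. Every comparison within a chemical against C1 used the same C1 libraries.

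HDAC enzymes take acetyl groups off histones, and their inhibitors leave chromatin more acetylated. HepaRG cells come from a bipotent liver progenitor, and a differentiated culture holds hepatocyte-like cells beside flat cells with biliary features. In the liver, SOX9 is the transcription factor that marks bile ducts and the progenitors around them, and SPP1, GGT1, EPCAM, CLDN4, CFTR and PROM1 are proteins that ductal or progenitor cells secrete or carry on their surface. In a bulk culture, fewer cells of a type and less RNA per cell cannot be told apart.

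Total counts per library ranged from 1061359 to 5250260, with a median of 3702007. Levels are given as CPM, the counts per 1000000 of the scaled library size, on which a single count was worth at most 0.842 CPM. The mean total was lower at C5 than at C1 in all 8 chemicals, least in trichostatin A (3725492 against 3832638) and most in vorinostat (1485592 against 3038905). Albumin, the main plasma protein made by hepatocytes, had at least 1952 counts in every library. Among biliary keratins, KRT19_10816 (symbol and probe number, as the rows are named) had counts in every library, whereas KRT7_10561 was at 0 in 19 libraries and KRT7_3703 in 77. Batch 3 of trichostatin A C1 stood apart from its group, with a summed level of 20 probes of 18 hepatocyte genes of 14080 CPM against 56614 and 60540 CPM in the other 2. Batch 3 of scriptaid C4 stood apart as well, with a summed level of Notch and YAP pathway genes of 5250 CPM against 1240 and 1532 CPM. Over 6825 features with a mean above 20 CPM, the mean correlation of log2 CPM with the other libraries of the group was 0.728 in that library and 0.748 in batch 3 of mocetinostat C2, where the 115 other libraries, these 3 aside, had between 0.820 and 0.980. Calls of the members that changed without 1 of these 3 libraries are given both ways, and leaving them out was decided after the data had been seen.

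The members fell into those with measurable counts and those near the detection limit. SOX9 had between 4.48 and 113 CPM per library and SPP1 between 2.24 and 142 CPM (the latter in the scriptaid C4 library that stood apart), and both had counts in all 118 libraries. SOX4 was at 0 in 1 library, and GGT1_27266 in 10 libraries. The other 5 probes were at 0 in 48 libraries (PROM1), 73 (CLDN4), 79 (GGT1_19717), 110 (CFTR) and 113 (EPCAM). Levels of different probes were not compared with each other, since probes differ in efficiency. A probe entered the test in a chemical only where it passed a filter on low counts, which gave 33 tests over the 8 chemicals: 8 each for SOX9, SPP1, SOX4 and GGT1_27266, and 1 for CLDN4.

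At the highest concentration, SOX9, SPP1, SOX4 and GGT1 each rose in some chemicals and no tested member was called falling. A gene was called when the edgeR quasi-likelihood test gave a Benjamini-Hochberg adjusted p under 0.05 over all features of that chemical and the change was at least 1.5-fold. Of the 33 tests of C5 against C1, 14 were called rising (42.4%), where 11.6% of all 101732 tests rose. The tests repeat the same few probes over the chemicals, and the members were chosen with earlier results of these data known. The difference between the shares is therefore a description and not a test. The 14 calls comprised 5 chemicals for SOX9, 5 for SPP1, 2 for SOX4 and 2 for GGT1, whose counts were low. The GGT1 and CLDN4 probes may have passed the filter mainly through their higher groups. Such a probe is more easily called rising than falling, which limits both shares. No member test was called falling, against 13.4% of all tests, and the probes that were not tested could not be called. By edgeR no member test was lower at an unadjusted p under 0.05, and DESeq2 likewise called 0 falling. The share of all features that rose at C5 differed widely between chemicals, being 13.8% in apicidin, 14.8% in mocetinostat, 6.77% in panobinostat, 12.8% in scriptaid, 18.7% in tacedinaline, 0% in trichostatin A, 4.84% in valproic acid and 22.7% in vorinostat. The median member change at C5 was between 0.45 (log2, trichostatin A) and 1.45 (apicidin), over 4 tested probes in each chemical and 5 in mocetinostat, whereas the median of all features lay between -0.00 and 0.08.

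**Figure D1:**
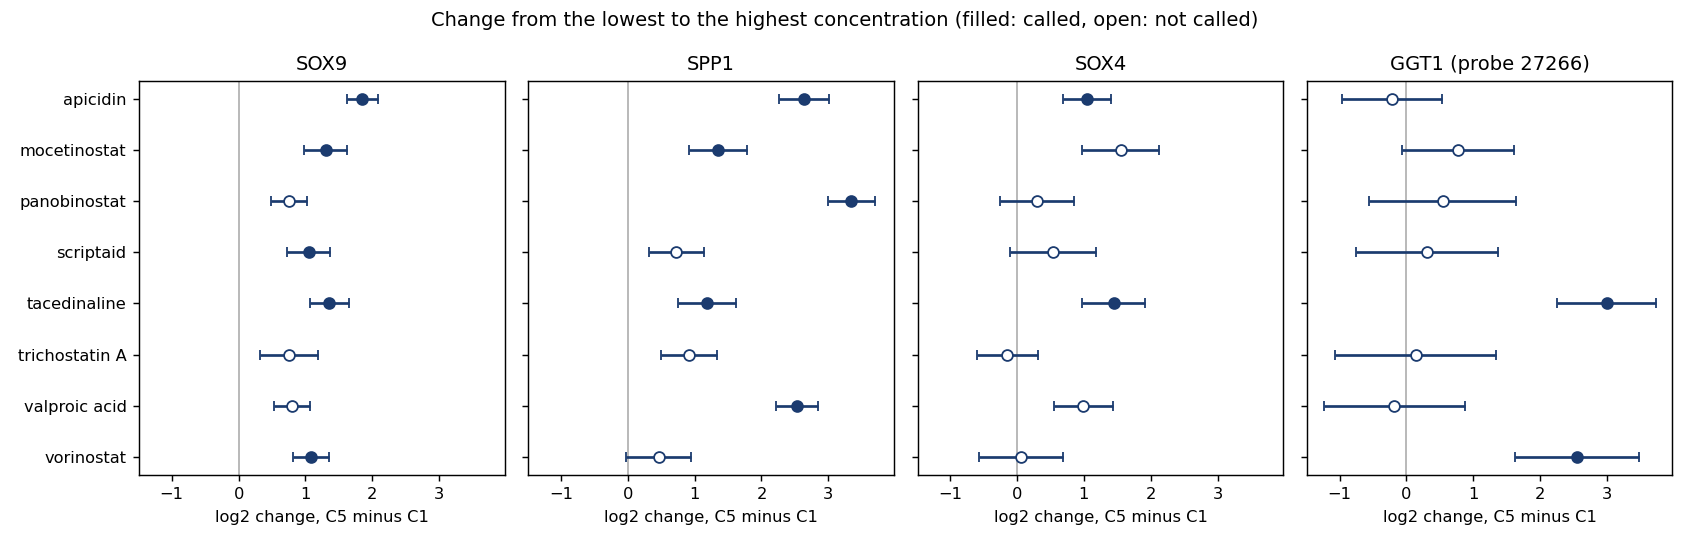
Log2 change from C1 to C5 (x axis) in each of the 8 chemicals (y axis) for SOX9, SPP1, SOX4 and GGT1_27266. Points are edgeR estimates, bars 1 standard error, filled points calls and open points tests that were not called. SOX9 estimates all lie between 0.75 and 1.85, whereas SPP1 estimates run from 0.46 to 3.34.

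SOX9 rose in most chemicals. Its C5 change was called in 5 of the 8 chemicals by edgeR. In 7 chemicals its C5 libraries lay above the C1 libraries without overlap. The share of all features that did so was not counted, so this adds no weight to the calls. In apicidin SOX9 was at 22.8, 28.4 and 29.9 CPM in batches 1, 2 and 3 at C1, and at 113, 79.9 and 97.0 CPM at C5. This was a log2 change of 1.85 ± 0.23 (SE, n = 3 and 3; edgeR adjusted p = 3.35e-06), or 3.61-fold. Every apicidin library at C5 exceeded every C5 library of the other chemicals, and the mean of 96.8 ± 16.8 CPM (SD, n = 3) was followed by 59.1 ± 13.3 CPM in mocetinostat.

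In the benzamides SOX9 also rose. Mocetinostat libraries were at 23.5, 23.6 and 29.1 CPM at C1 and 73.5, 56.5 and 47.3 CPM at C5, a log2 change of 1.31 ± 0.32 (edgeR adjusted p = 0.00551). Tacedinaline libraries were at 11.8, 19.8 and 18.8 CPM at C1 and 50.5, 35.6 and 42.0 CPM at C5, a log2 change of 1.36 ± 0.29 (edgeR adjusted p = 0.000195). The groups did not overlap in either chemical. Without batch 2 the mocetinostat call was lost (edgeR adjusted p = 0.112).

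Among the hydroxamic acids the SOX9 change was called in vorinostat and scriptaid. Vorinostat libraries went from 26.3, 19.1 and 25.5 CPM to 49.0, 48.5 and 40.7 CPM, a log2 change of 1.08 ± 0.27 (edgeR adjusted p = 0.00112). Scriptaid libraries went from 22.6, 22.3 and 30.0 CPM to 59.7, 49.1 and 38.7 CPM, a log2 change of 1.05 ± 0.32 (edgeR adjusted p = 0.0185). Leaving out batch 1 or batch 2 ended the scriptaid call, with edgeR adjusted p = 0.236 and 0.218.

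Panobinostat and valproic acid gave smaller SOX9 differences that missed the threshold by edgeR, with groups that did not overlap. Panobinostat libraries were at 19.9, 31.4 and 24.2 CPM at C1 and 47.0, 39.8 and 42.2 CPM at C5 (log2 change 0.75 ± 0.27, edgeR adjusted p = 0.0620). With the HepaRG batch as a block this value was called (0.78, edgeR adjusted p = 0.0431), and so it was without batch 2 (1.02, edgeR adjusted p = 0.0211). Valproic acid libraries were at 23.6, 29.6 and 14.3 CPM at C1 and 35.0, 39.4 and 42.3 CPM at C5 (0.80 ± 0.27, edgeR adjusted p = 0.0597). DESeq2 called the C5 change both in panobinostat (0.77, DESeq2 adjusted p = 0.0389) and in valproic acid (0.80, DESeq2 adjusted p = 0.0339). The trend over all 5 concentrations, given as its fitted C5 minus C1 log2 difference, was called for SOX9 in valproic acid (0.88 ± 0.23, edgeR adjusted p = 0.00836), and lost without batch 3 (0.58, edgeR adjusted p = 0.138).

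In trichostatin A SOX9 was at 22.5, 17.3 and 4.48 CPM at C1 and 12.3, 33.7 and 29.0 CPM at C5, with overlapping groups (0.75 ± 0.44, edgeR adjusted p = 0.61). The lowest SOX9 level of the series was that of the C1 library that stood apart, and without it the log2 change was 0.32 ± 0.35 (edgeR adjusted p = 0.767). At C5 the trichostatin A mean of 25.0 ± 11.2 CPM was the lowest of the 8 chemicals and its range lay below that of valproic acid, the next in order at 38.9 ± 3.7 CPM. From mocetinostat down to valproic acid, each chemical's range at C5 overlapped with that of its neighbour.

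**Figure D2:**
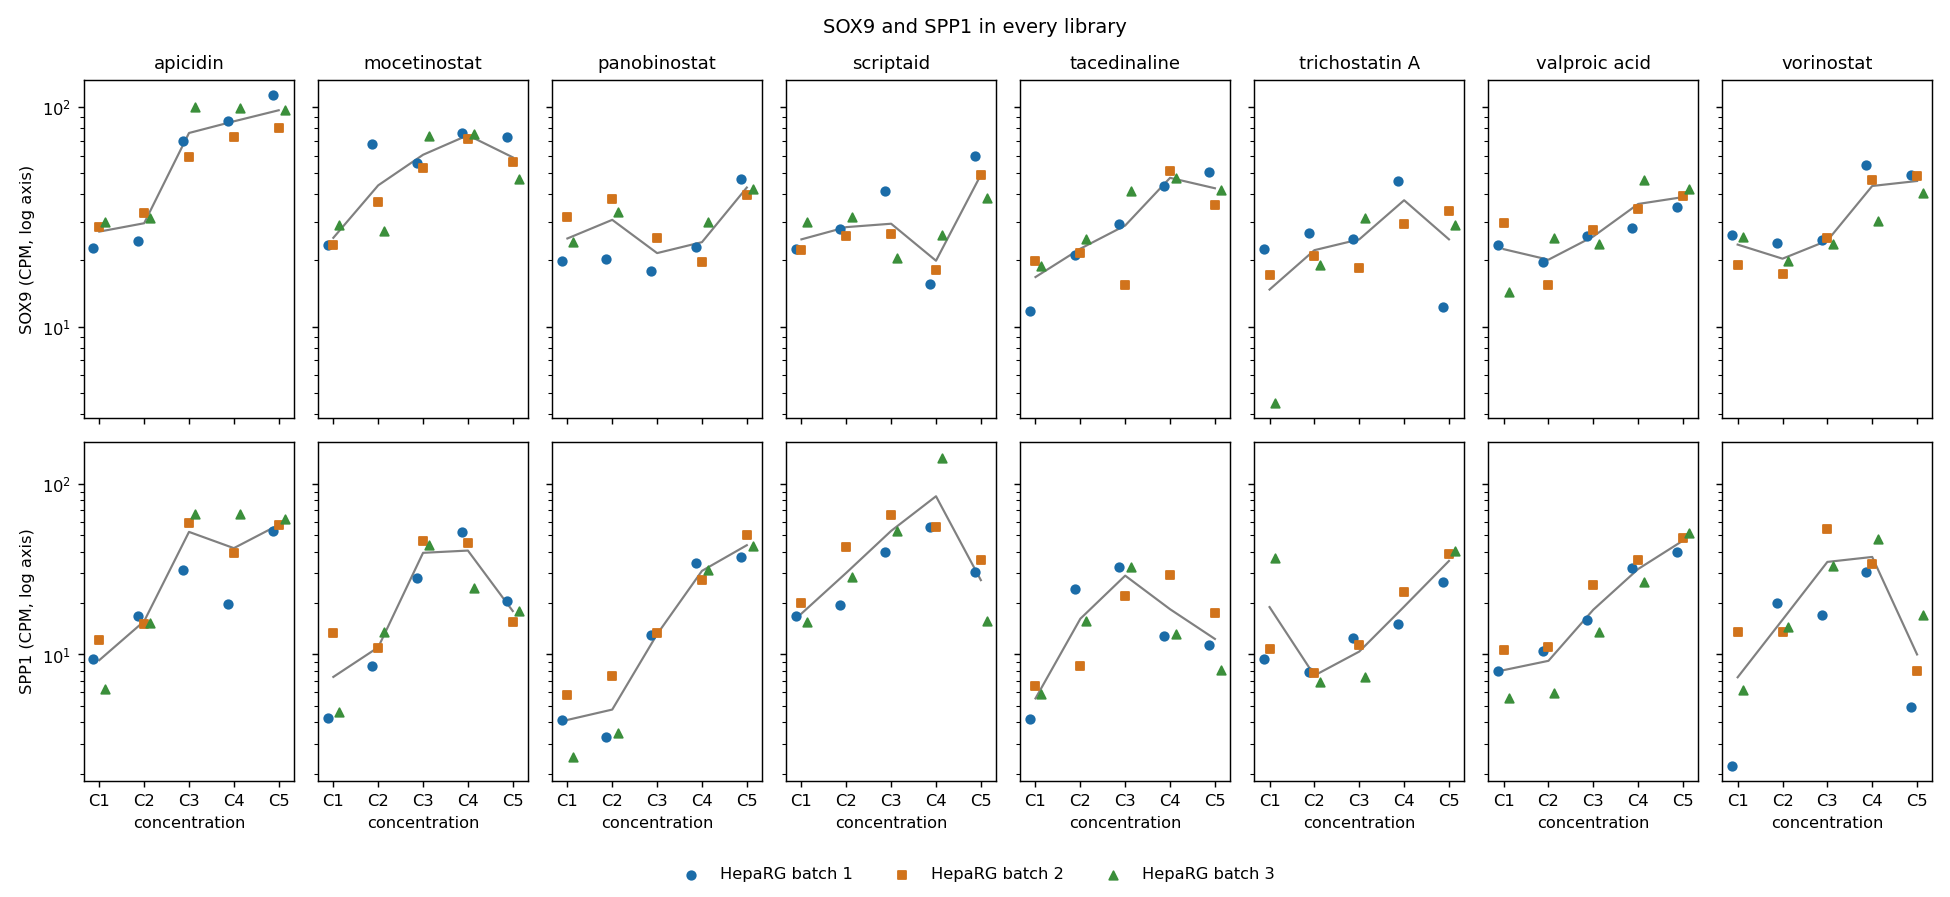
SOX9 (top) and SPP1 (bottom) in every library, in CPM on log axes, by concentration from C1 to C5 (x axis) in each chemical. Symbols mark the 3 HepaRG batches and grey lines join group means. SPP1 reaches its highest mean below C5 in mocetinostat, scriptaid, tacedinaline and vorinostat, and SOX9 does so in mocetinostat, tacedinaline and trichostatin A.

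SPP1, the secreted phosphoprotein osteopontin, was called in 5 chemicals at C5 and in more chemicals than SOX9 at C3 and C4. At C1 the 24 libraries lay between 2.24 and 36.7 CPM, with a median of 7.26 CPM. Scriptaid libraries at C1 (15.4 to 19.9 CPM) lay above all other C1 libraries except the trichostatin A library that stood apart.

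The SPP1 gene start is shown because SPP1 was the member whose response differed between chemicals. The 250 bases before the RefSeq start of SPP1 (GRCh38.p14, chr4:87975464-87975713, plus strand) are printed with motif matches in capitals. The letters ACAAT, on the minus strand read as ATTGT, mark the core of SOX binding sites, and the letters AACCACA mark the core of RUNX sites.
SPP1: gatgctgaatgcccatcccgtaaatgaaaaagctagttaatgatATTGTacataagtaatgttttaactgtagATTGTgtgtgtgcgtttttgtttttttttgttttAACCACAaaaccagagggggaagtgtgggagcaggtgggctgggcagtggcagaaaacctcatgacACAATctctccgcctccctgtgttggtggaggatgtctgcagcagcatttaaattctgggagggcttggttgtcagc
The window holds 3 SOX cores, on the minus strand from positions 45 and 74 and on the plus strand from position 174, and 1 RUNX core on the plus strand from position 108, counted from the first base printed. On either strand, a SOX core occurs in 24.7% and a RUNX core in 3.65% of the 34788 different windows of this length in the reference. The letters TATAAA (of the TATA element), CCAAT and GGGCGG (of the GC element) occur in the window on neither strand. A match of letters is a description and not a bound site.

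SPP1 rose most at C5 in panobinostat, apicidin and valproic acid. Panobinostat libraries were at 4.12, 5.77 and 2.52 CPM at C1 and at 37.2, 50.5 and 43.3 CPM at C5, a log2 change of 3.34 ± 0.35 (edgeR adjusted p = 5.87e-07), or 10.2-fold. Apicidin libraries went from 9.43, 12.1 and 6.26 CPM to 52.8, 57.2 and 62.4 CPM (2.63 ± 0.37, edgeR adjusted p = 1.59e-05). Valproic acid libraries went from 8.01, 10.7 and 5.59 CPM to 39.9, 47.9 and 51.7 CPM (2.54 ± 0.31, edgeR adjusted p = 6.79e-06). In these 3 chemicals C5 exceeded C1 without overlap, and each call was kept whichever HepaRG batch was left out. Apicidin at C5 had the highest mean of the 8 chemicals, 57.5 ± 4.8 CPM, and did not overlap with valproic acid at 46.5 ± 6.0 CPM.

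The benzamides gave smaller SPP1 changes at C5. Mocetinostat libraries were at 4.22, 13.4 and 4.58 CPM at C1 and 20.6, 15.4 and 17.9 CPM at C5 (1.35 ± 0.43, edgeR adjusted p = 0.0246). Tacedinaline libraries were at 4.21, 6.51 and 5.86 CPM at C1 and 11.4, 17.5 and 8.15 CPM at C5 (1.18 ± 0.44, edgeR adjusted p = 0.0257). Neither pair of groups overlapped. The mocetinostat call was lost without batch 1 or batch 3 (edgeR adjusted p = 0.214 and 0.133), and the tacedinaline call without batch 1 or batch 2 (0.0853 and 0.166).

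At C5 the SPP1 change was not called in scriptaid, vorinostat or trichostatin A. Scriptaid libraries were at 16.7, 19.9 and 15.4 CPM at C1 and 30.2, 35.8 and 15.7 CPM at C5 (0.73 ± 0.41, edgeR adjusted p = 0.192), and the call was gained without batch 3 (0.90, edgeR adjusted p = 0.0457). Vorinostat libraries were at 2.24, 13.6 and 6.22 CPM at C1 and 4.90, 8.00 and 17.1 CPM at C5 (0.46 ± 0.49, edgeR adjusted p = 0.441). Both pairs of groups overlapped.

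For trichostatin A the SPP1 result against C1 depended on the C1 library that stood apart. Libraries were at 9.35, 10.8 and 36.7 CPM at C1 and 26.7, 38.7 and 40.6 CPM at C5 (0.92 ± 0.42, edgeR adjusted p = 0.504). Without that library the log2 change was 1.82 ± 0.35 and was called (edgeR adjusted p = 0.00966), as was the trend (2.18 ± 0.33, edgeR adjusted p = 0.00153, and 0.471 with the library). The same held for C5 without batch 3 in every group (1.71, edgeR adjusted p = 0.0197). Over C3, where the libraries were at 12.5, 11.4 and 7.35 CPM, the C5 level was higher by 1.76 ± 0.43 (edgeR adjusted p = 0.413), and by 1.76 ± 0.30 without the library (edgeR adjusted p = 0.00151). With all libraries kept, the difference from C3 was called by DESeq2 (1.77, DESeq2 adjusted p = 0.0446). It was also called without the filter on low counts (1.76, edgeR adjusted p = 0.00058). With the library kept, no feature of 12993 rose at C5 in trichostatin A by edgeR, with 681 higher at an unadjusted p under 0.05, and 17 rose by DESeq2. Without it, 21 of 12878 features rose by edgeR (0.163%), SPP1 among them.

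Intermediate concentrations showed where members first passed the threshold, which need not be where a response began. At C2 no member was called in either direction by edgeR or DESeq2, with 3 of 33 edgeR tests higher and 1 lower at an unadjusted p under 0.05, while 0.0659% of all tests rose. Without batch 3 of mocetinostat C2, SOX9 was called there (1.15 ± 0.29, edgeR adjusted p = 0.00638), with libraries at 68.0, 36.8 and 27.3 CPM, the last being the one left out. That library was near the C1 mean of SOX9, 25.4 CPM. Its summed Notch and YAP level of 1677 CPM lay within C1 (1590 to 1699 CPM), against 3220 and 2750 CPM in batches 1 and 2. Its summed hepatocyte level of 49210 CPM lay below C1 (57123 to 73397 CPM). The call thus rests on leaving out the library closest to C1 in SOX9. At C3 6 member tests rose (18.2%, background 2.82%), 4 of SPP1 and 2 of SOX9. At C4 12 rose (36.4%, background 7.85%), 7 of SPP1, 4 of SOX9 and 1 of GGT1. By the trend 15 rose (45.5%, background 12.7%). None fell in any of these 3 comparisons by edgeR or DESeq2, and no edgeR test was lower at an unadjusted p under 0.05.

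At C3 the SPP1 changes that were called lay between 2.16 ± 0.44 in vorinostat (edgeR adjusted p = 0.00134) and 2.49 ± 0.37 in apicidin (edgeR adjusted p = 8.17e-05). Mocetinostat libraries had reached 28.1, 46.2 and 44.0 CPM, tacedinaline libraries 32.3, 22.1 and 32.4 CPM, and vorinostat libraries 17.0, 54.6 and 33.0 CPM. All 3 chemicals lay above their C1 groups without overlap. SOX9 was called at C3 in apicidin (69.9, 59.1 and 99.8 CPM) and mocetinostat (55.5, 52.7 and 73.8 CPM), the latter lost without batch 2 (edgeR adjusted p = 0.224). In scriptaid the SPP1 change at C3 was 1.62 ± 0.41 (edgeR adjusted p = 0.0571), and it was called without the C4 library that stood apart (1.61 ± 0.30, edgeR adjusted p = 0.00112).

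At C4 SPP1 was called in every chemical other than trichostatin A, with log2 changes from 1.74 ± 0.42 in tacedinaline to 2.84 ± 0.35 in panobinostat. The scriptaid change was 2.32 ± 0.42 (edgeR adjusted p = 0.00293) and 1.67 ± 0.33 without the library that stood apart (edgeR adjusted p = 0.00135), and the call was lost without batch 2 (0.0728). The SPP1 trend in scriptaid was called both with and without that library (1.75, edgeR adjusted p = 0.0482, and 1.27, edgeR adjusted p = 0.0412), and was lost whichever batch was left out. The SOX9 calls at C4 were lost in mocetinostat without batch 2 (edgeR adjusted p = 0.0755) and in vorinostat without batch 1 or batch 2 (0.0995 and 0.154).

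In part of the chemicals SPP1 fell again between the middle and the highest concentration, while SOX9 was called falling in none by edgeR or DESeq2 and was lower at an unadjusted p under 0.05 in none. C5 was therefore also compared with C3 and with C4. These comparisons were added after the members' levels had been seen, and their p-values do not account for that choice. Against C3, SPP1 was lower in tacedinaline by a log2 difference of -1.16 ± 0.40 (edgeR adjusted p = 0.0255), from 32.3, 22.1 and 32.4 CPM to 11.4, 17.5 and 8.15 CPM, without overlap. In vorinostat the difference was -1.70 ± 0.46 (edgeR adjusted p = 0.00299), from 17.0, 54.6 and 33.0 CPM to 4.90, 8.00 and 17.1 CPM, with batch 1 at C3 just below batch 3 at C5. The first call was lost without batch 1 or batch 3 (edgeR adjusted p = 0.144 and 0.210) and the second without batch 2 (0.148). Of all features, 13.2% fell from C3 to C5 in tacedinaline and 21.6% in vorinostat.

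Against C4, SPP1 fell in vorinostat and scriptaid. Vorinostat libraries at C4 were at 30.2, 33.9 and 47.7 CPM, and the C5 level was lower by a log2 difference of -1.81 ± 0.45 (edgeR adjusted p = 0.00379), a call kept whichever batch was left out. Scriptaid libraries at C4 were at 55.8, 55.5 and 142 CPM, the last in the library that stood apart (-1.59 ± 0.41, edgeR adjusted p = 0.00786). Without that library the scriptaid difference was -0.95 ± 0.33 and was called (edgeR adjusted p = 0.0289), as was the difference from C3 (-0.89 ± 0.30, edgeR adjusted p = 0.0189, and 0.112 with it). Without batch 3 in every group, the difference from C4 was -0.73 and was not called (edgeR adjusted p = 0.103). The groups did not overlap in either chemical. Of all features, 10.8% fell from C4 to C5 in vorinostat and 16.5% in scriptaid. Together the 33 member tests gave 4 rising (12.1%) and 2 falling (6.06%) against C3, where 4.88% of all tests rose and 7.86% fell. Against C4 they gave 1 rising (3.03%) and 2 falling (6.06%), where 1.88% of all tests rose and 3.84% fell. The falling share was thus below that of all tests against C3 and above it against C4.

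The members that rose above C3 or C4 at the highest concentration were spread over the chemicals. SPP1 at C5 exceeded C3 in panobinostat (1.73 ± 0.36, edgeR adjusted p = 0.0036) and valproic acid (1.36 ± 0.29, edgeR adjusted p = 0.0111), where its mean was highest at C5. The panobinostat call was lost without batch 1 (edgeR adjusted p = 0.151) and the valproic acid call without batch 1 or batch 3 (0.331 and 0.0775). SOX9 at C5 exceeded C3 in vorinostat (0.98 ± 0.28, edgeR adjusted p = 0.00481), and this call was lost without batch 1 (edgeR adjusted p = 0.0504). In scriptaid SOX9 exceeded its C4 level of 15.6, 18.0 and 26.3 CPM (1.35 ± 0.33, edgeR adjusted p = 0.00615), and by 1.61 ± 0.33 without the library that stood apart (edgeR adjusted p = 0.000546). That call was lost without batch 1 or batch 2 (edgeR adjusted p = 0.152 and 0.123). Over C3 the scriptaid SOX9 difference was 0.81 ± 0.32 (edgeR adjusted p = 0.0721), and was called without that library (0.81 ± 0.27, edgeR adjusted p = 0.0205). SPP1 had its highest mean at C5 in 4 chemicals, at C4 in 3 and at C3 in 1, and SOX9 at C5 in 5 and at C4 in 3.

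Whether the C5 change differed between chemicals was tested in a single fit of all 118 libraries. SPP1 differed (F = 5.93 on 7 degrees of freedom, edgeR adjusted p = 8.58e-05, and 0.000102 without the trichostatin A library that stood apart), as did 30.3% of all 15632 features tested. For SOX9 (edgeR adjusted p = 0.322), SOX4 (0.301), GGT1 (0.357), CLDN4 (0.111) and PROM1 (0.858) no difference was called, which does not show that the chemicals acted alike. Without batch 3, SOX9 also differed (edgeR adjusted p = 0.0420). Since doses were not matched, a difference between chemicals cannot be told apart from a difference in relative dose.

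SOX4, a transcription factor of the same family as SOX9 that is active in progenitor cells, was called at C5 in tacedinaline and apicidin. Tacedinaline libraries were at 5.05, 8.88 and 5.37 CPM at C1, at 3.69, 8.23 and 2.32 CPM at C3 and at 17.3, 17.1 and 16.7 CPM at C5. The C5 level exceeded both, by 1.44 ± 0.48 over C1 (edgeR adjusted p = 0.0129) and 1.89 ± 0.50 over C3 (edgeR adjusted p = 0.00404). Both calls were lost without batch 1 or batch 3, against C1 with edgeR adjusted p = 0.0765 and 0.0846 and against C3 with 0.0564 and 0.0548.

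Apicidin libraries were at 5.87, 6.87 and 7.08 CPM SOX4 at C1 and 16.2, 11.2 and 13.2 CPM at C5 (1.05 ± 0.36, edgeR adjusted p = 0.0317). This call was lost whichever batch was left out, with edgeR adjusted p between 0.0836 and 0.203, while the trend was kept in each case (1.18 ± 0.32, edgeR adjusted p = 0.00497 with all libraries). Mocetinostat libraries were at 9.49, 3.17 and 2.96 CPM at C1 and 12.1, 18.7 and 12.4 CPM at C5 (1.55 ± 0.58, edgeR adjusted p = 0.0507). There the C5 value was called with the batch as a block (1.69, edgeR adjusted p = 0.0436), without batch 1 (2.36, edgeR adjusted p = 0.0301), without batch 3 of C2 (1.55 ± 0.57, edgeR adjusted p = 0.0400) and by the trend (1.46 ± 0.49, edgeR adjusted p = 0.0265). The trend call was lost without batch 2 or batch 3 (edgeR adjusted p = 0.198 and 0.213). C5 lay above C1 without overlap in both chemicals.

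Valproic acid libraries were at 3.81, 4.28 and 5.83 CPM SOX4 at C1 and 15.0, 6.16 and 6.21 CPM at C5, without overlap, and the change was not called (0.99 ± 0.44, edgeR adjusted p = 0.169). In the other 4 chemicals SOX4 groups overlapped and estimates ran from -0.15 (trichostatin A, and -0.22 without the library that stood apart) to 0.54 (scriptaid). The order of SOX4 means at C5 was led by tacedinaline at 17.1 ± 0.32 CPM, and every chemical's range overlapped with that of its neighbour.

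The window before the SOX4 start is printed for comparison with that of SPP1. It covers 250 bases (GRCh38.p14, chr6:21593501-21593750, plus strand), with the letters CCAAT in capitals, which read as ATTGG on the minus strand.
SOX4: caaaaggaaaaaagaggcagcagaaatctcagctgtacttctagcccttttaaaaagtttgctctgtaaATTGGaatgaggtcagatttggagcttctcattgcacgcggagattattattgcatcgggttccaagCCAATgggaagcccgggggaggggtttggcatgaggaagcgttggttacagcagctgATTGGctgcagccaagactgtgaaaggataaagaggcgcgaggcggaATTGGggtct
CCAAT boxes, which share the letters CAAT with the SOX core, occur 4 times, on the plus strand from position 137 and on the minus strand from positions 70, 194 and 241. At least 1 CCAAT occurs in 32.0% of all windows. Neither a SOX core, a RUNX core, the TATA element nor the GC element occurs in this window on either strand.

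GGT1, the gamma-glutamyltransferase of bile duct and fetal liver membranes, was measured by a pair of probes with low counts. For GGT1_27266, tacedinaline libraries were at 0, 2.96 and 0.732 CPM at C1 and at 10.4, 16.1 and 6.93 CPM at C5, without overlap (3.00 ± 0.74, edgeR adjusted p = 0.00096). This call was kept whichever batch was left out, and in tacedinaline the gene was also called at C4 (2.17 ± 0.74, edgeR adjusted p = 0.0185), which was lost without batch 1 or batch 3 (0.0731 and 0.0704). Vorinostat libraries were at 0, 1.01 and 1.86 CPM at C1 and 8.17, 3.77 and 6.49 CPM at C5 (2.55 ± 0.93, edgeR adjusted p = 0.0209). The vorinostat call was lost without batch 1 or batch 2 (edgeR adjusted p = 0.232 and 0.0650), and without batch 3 the probe was not tested. Counts at C1 were 0, 10 and 3 in tacedinaline and 0, 4 and 6 in vorinostat. The probe may thus have passed the filter mainly through its higher groups, and such a probe is likely to differ, which limits these calls. In the other 6 chemicals estimates lay between -0.21 and 0.77 and groups overlapped. The trichostatin A estimate was 0.14, and 0.78 without the library that stood apart.

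GGT1 has near-identical copies, and the values may be shared with them. The probe GGT2_33651 rose at C5 in the same pair of chemicals, by 2.14 ± 0.61 in tacedinaline (edgeR adjusted p = 0.00398) and 2.49 ± 0.82 in vorinostat (edgeR adjusted p = 0.0113). Its tacedinaline libraries went from 0.842, 1.18 and 4.64 CPM to 8.91, 14.4 and 8.56 CPM, and its vorinostat libraries from 0.559, 0.756 and 4.66 CPM to 14.7, 12.2 and 6.49 CPM. Which of the copies gave the counts is uncertain. The other probe, GGT1_19717, had 106 counts in all and at most 8 in a library, and passed the filter in no chemical.

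PROM1 (the membrane glycoprotein CD133) and CLDN4 (a tight junction claudin) lay near the detection limit and gave no call by edgeR with all libraries. PROM1 summed to 42 counts over 24 libraries at C1 and 86 over 24 at C5, or 0.448 and 1.16 CPM of the summed totals. Libraries with more than 3 counts of PROM1 numbered 6 at C1 and 10 at C5. CLDN4 summed to 26 counts at C1 and 79 at C5, or 0.277 and 1.06 CPM of the summed totals, with more than 3 counts in 2 libraries at C1 and 9 at C5. These sums were not tested, and the filter was passed only by CLDN4 in mocetinostat. There the counts were 3, 0 and 0 at C1 and 11, 5 and 10 at C5 (edgeR adjusted p = 0.0897, and 0.0700 for the trend). The CLDN4 trend was called by DESeq2 (2.63, DESeq2 adjusted p = 0.0442) and without batch 1 (4.13, edgeR adjusted p = 0.0315). A probe that passes the filter mainly through its higher groups is likely to differ, so these tests carry little weight. In scriptaid at C5 the CLDN4 counts were 1, 2 and 13.

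EPCAM (the epithelial cell adhesion molecule) and CFTR (the chloride channel of the bile duct surface) were nearly absent from the counts. EPCAM had 6 counts in all, in 5 of 118 libraries, and all 40 groups had at most 3 counts in every library. CFTR had 33 counts in all, of which 13 were in the trichostatin A C1 library that stood apart and 8 in batch 2 of apicidin C1. No CFTR count was seen in the 23 libraries at C3 or the 24 at C5. A count of 0 allows up to 3 counts, which is 0.601 to 2.53 CPM depending on the library, so a low level of either gene was not detectable at this depth. Such floors cover counting error only, because reads were counted without molecular identifiers and several can come from 1 molecule.

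**Figure D3:**
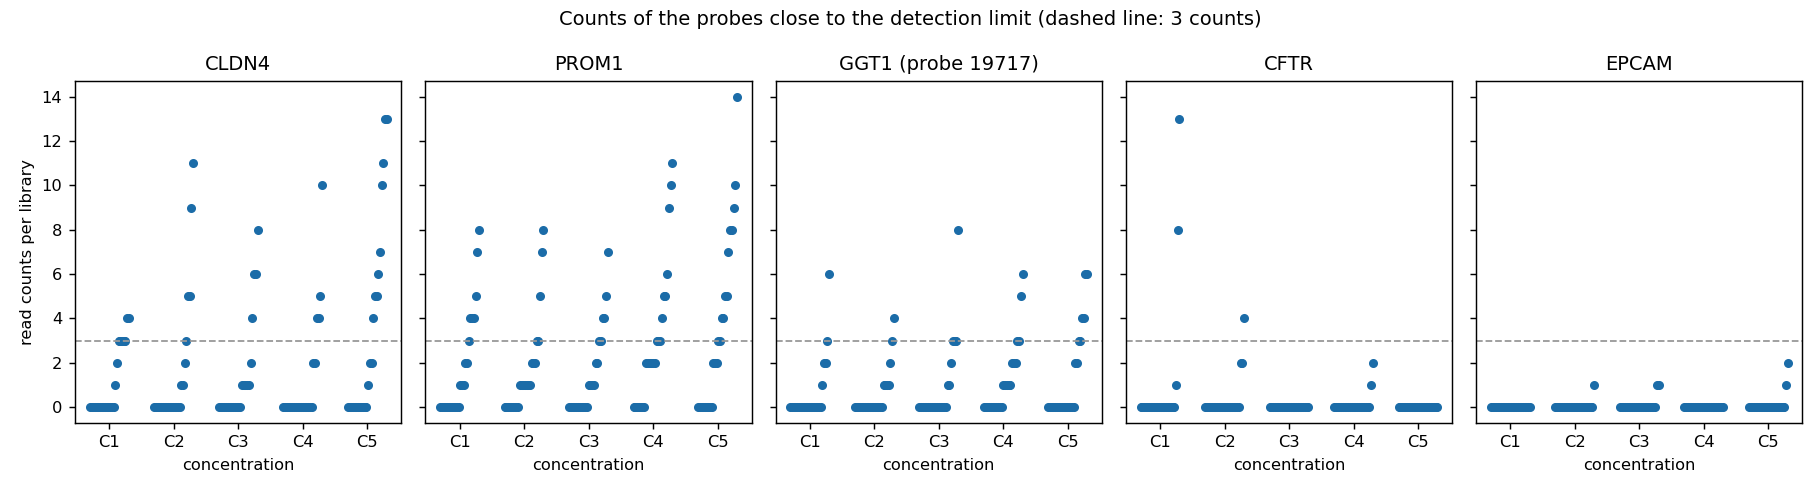
Read counts per library (y axis) of CLDN4, PROM1, GGT1_19717, CFTR and EPCAM at C1 to C5 (x axis), over all 8 chemicals, with a point per library and a dashed line at 3 counts. At C5, 9 CLDN4 libraries and 10 PROM1 libraries lie above the line, and EPCAM has none above it at any concentration.

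The HepaRG batches did not differ detectably in the members' levels at C1. In a fit of the 24 C1 libraries with chemical as a covariate, no member was called, where 0.0907% of 12127 features were. The lowest unadjusted p was that of SPP1 (0.0628, edgeR adjusted p = 0.689), and it was 0.00220 (edgeR adjusted p = 0.0839) without trichostatin A. Batch 2 had the highest median SPP1 level at C1, 11.4 CPM, against 6.11 CPM in batch 1 and 6.04 CPM in batch 3. The slope on concentration was not called different between batches in any of the 33 member tests, 1 of which had an unadjusted p under 0.05 (0.0430), and in 0% of all tests. The slope test had low power in simulated data, so it does not show that the batches responded alike.

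Across the 40 group means of log2 CPM the members differed in how closely they followed each other. Pearson's r was 0.599 for SOX4 with SOX9, 0.512 for GGT1 with SOX9, 0.452 for SPP1 with SOX9, 0.378 for GGT1 with SOX4, 0.249 for GGT1 with SPP1 and 0.192 for SOX4 with SPP1. Among 10833 features with a mean of at least 10 CPM in some group, those with the closest pattern to SOX9 were EMC3 (r = 0.889) and SLC22A5 (0.884), to SPP1 TMEM100 (0.775) and ODAM (0.775), to SOX4 BAMBI (0.793) and MIA3 (0.776), and to GGT1 CDR2L (0.805) and IGFL1 (0.787). These values describe 40 means that share chemicals, plates and sequencing depth and hold the 3 libraries that stood apart, and they carry no test.

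Other biliary genes were called falling more often than rising. Of 128 tests at C5 of 22 such genes with a row, 10 rose (7.81%, background 11.6%) and 34 fell (26.6%, background 13.4%), with list medians between -1.45 and 0.08 (log2). ONECUT2, a liver and bile duct transcription factor, rose in 7 chemicals, by up to 2.06, and ELF3, an epithelial transcription factor, in 2. MMP7, a secreted protease of ductal epithelium, fell in 7 chemicals with estimates from -3.67 to -0.75, CDH1 (E-cadherin) fell in 5 and ANXA4 in 5. For the biliary keratin KRT19, the probe KRT19_3690 rose in tacedinaline alone (0.96, edgeR adjusted p = 0.0208) and KRT19_10816 in none by edgeR or DESeq2, with no unadjusted p under 0.05 and estimates between -0.51 and 0.36.

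Other progenitor and fetal liver genes moved in both directions. Of 76 tests, 16 rose (21.1%, background 11.6%) and 19 fell (25%, background 13.4%). NCAM1, an adhesion molecule of reactive ductular cells, rose in 7 chemicals, by up to 2.44, and PEG10, an imprinted gene of fetal liver, in 7, by up to 2.05. PROX1, a transcription factor of hepatoblasts and hepatocytes, fell in 7 chemicals, the TWEAK receptor TNFRSF12A in 6, with estimates from -1.43 to 0.46, and AFP, the fetal plasma protein, in 4.

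Genes of the Notch and YAP pathways, which act upstream of the biliary programme, rose in 29 of 96 tests (30.2%, background 11.6%). They fell in 14 (14.6%, background 13.4%). The targets ANKRD1 (6 chemicals), CCN1, CCN2 and HEY1 (5 each) were the most often called rising. YAP1 itself fell in 6 chemicals and the receptor NOTCH1 in 5. The target AMOTL2 fell in 3. Targets were thus called in both directions, and the falling share of the list was near that of all tests.

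Hepatocyte and stromal genes moved with these results. Of 159 tests of 18 hepatocyte genes, none rose and 130 fell (81.8%, background 13.4%) by edgeR. At an unadjusted p under 0.05 none was higher, and DESeq2 called 0 rising. The summed hepatocyte level in the 7 chemicals other than trichostatin A was 40140 to 73397 CPM at C1 and 3118 to 30618 CPM at C5, without overlap within each chemical. In trichostatin A it was 14080 to 60540 CPM at C1 and 39346 to 50527 CPM at C5, and no hepatocyte gene was called by edgeR or DESeq2, with 1 edgeR test lower at an unadjusted p under 0.05. Without the library that stood apart, C1 was at 56614 and 60540 CPM, above all C5 libraries, and 6 of 20 hepatocyte tests fell by edgeR, with 14 lower and 0 higher at an unadjusted p under 0.05. The bile acid enzyme CYP7A1 (CYP7A1_89758) fell in 7 chemicals, as did CYP3A4 by both probes and G6PC, the enzyme that releases glucose. Among the hepatocyte probes, those of ALB, APOA1, TTR and SERPINA1 were above 0 in every library. Others reached 0, such as PCK1 in 21 libraries, CYP3A4_90076 in 6 and HNF4A in 5.

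Of 64 tests of stromal genes, 8 rose (12.5%, background 11.6%) and 27 fell (42.2%, background 13.4%). COL3A1_28516 fell in 7 chemicals with estimates from -3.73 to -1.47, ACTA2 in 7 and DCN_27098 in 6, whereas COL1A1 rose in 6, by up to 3.04. The summed stromal level was 175 to 358 CPM at C1 (296 at most without the trichostatin A library that stood apart) and 104 to 227 CPM at C5 over all chemicals, and the smooth muscle gene DES was at 0 in 116 libraries. The summed level of the member probes in the 7 chemicals was 21.1 to 56.4 CPM at C1 and 69.7 to 187 CPM at C5. The part of the hepatocyte and stromal changes, or of the lower totals at C5, in the members' rise was not tested.

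**Figure D4:**
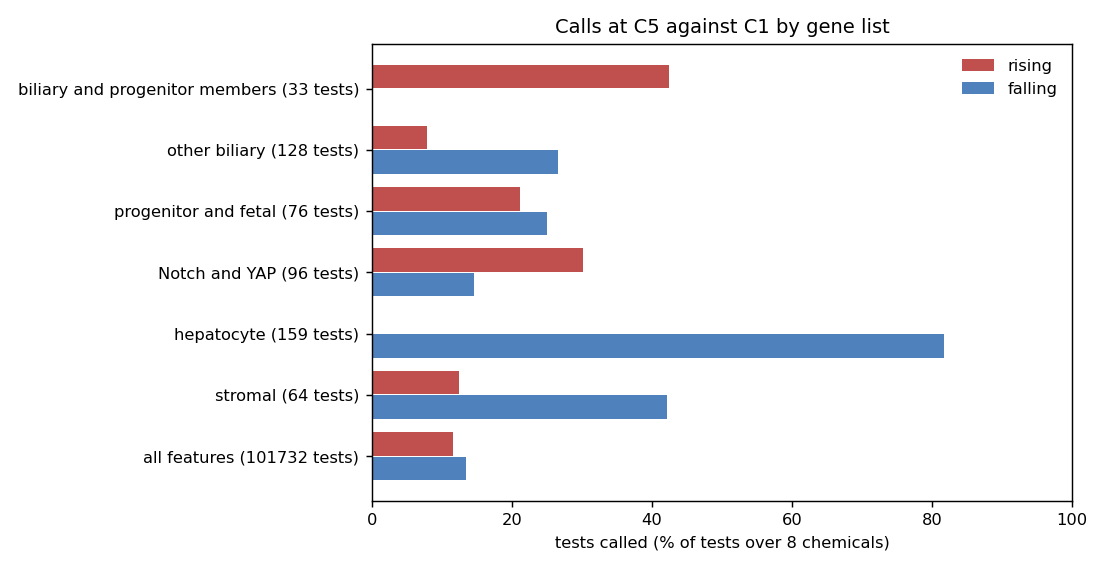
Share of C5 against C1 tests called rising and falling (x axis, percent of tests over the 8 chemicals) for each gene list and for all features (y axis). The members have 42.4% rising and 0% falling, other biliary genes 7.81% and 26.6%, hepatocyte genes 0% and 81.8%, and all features 11.6% and 13.4%.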

How the data were processed

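The authors deposited raw read counts per detector probe, as whole numbers without normalisation. The submitters' processing notes name STAR 2.7.10b, fastp 0.23.2, bcl2fastq 2.20.422 and DESeq2 1.38.0, and the genome build used is not given in the sources used here. Of 22069 rows, 1 had no value in 88 libraries and was not used. As this was the final row, others may be missing after it.

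The rule names row names only, and the members and lists were chosen with earlier results of these data known. Counts were tested in R 4.3.3 with edgeR 4.0.16, 1 fit per chemical over all its libraries, with filterByExpr, TMM scaling, quasi-likelihood F tests and Benjamini-Hochberg adjustment over all features tested. Calls needed an adjusted p under 0.05 and at least 1.5-fold. CPM used TMM-scaled totals over all 118 libraries, with a prior count of 2 for log2 CPM. DESeq2 1.42.0 was an alternative. Tests were checked on simulated data, where those of the slope between batches and of the difference between chemicals had low power. Every member probe was named, and of each other list up to 4 probes that rose and 4 that fell could be named, those called in most chemicals.

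HepaRG batch numbers come from the labels and pair the libraries. The median correlation between deviations from the group mean was 0.0529 over 232 same-batch pairs and -0.0240 over 464 pairs from different batches. No libraries of a group were duplicates, as the lowest chi-square per feature in 116 replicate pairs was 3.41. RefSeq promoter entries matched 7 of the 9 members, and SOX9 and EPCAM are named only.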

Additional observations from a re-analysis of the deposited data

Results flagged for a closer look

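The change of SPP1 from C1 to C5 differed between the 8 chemicals, by an F test over all 118 libraries (edgeR adjusted p = 8.58e-05). The adjusted p ranged from 1.50e-06 to 0.00864 over its alternatives. Log2 changes ran from 0.46 in vorinostat to 3.34 in panobinostat.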

How the results depend on the processing

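None of the single-gene values reversed under an alternative. Of these, 458 stayed on the same side of the threshold, 42 became called and 48 lost their call. Leaving out 1 HepaRG batch in turn gave 9 to 12 rising member calls at C5 in place of 14, with 9 without batch 1. For C2 to C4 the range was 16 to 20 in place of 18, and for the trend 12 to 13 in place of 15. For C5 against C3 or C4, it was 0 to 5 in place of 5 rising, with 0 without batch 1, and 2 to 3 in place of 4 falling, with 2 without batch 3. The number of members that differed between chemicals was 1 to 2 in place of 1. Of the 14 calls at C5, 7 were kept in every leave-out. DESeq2 gave 17 rising calls at C5 and 8 in place of 5 for C5 against C3 or C4, where leaving out batch 3 of trichostatin A C1 gave 6, as did leaving out batch 3 of scriptaid C4, chosen after seeing the data. Causes were not tested.

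With the HepaRG batch as a replicate block, rising calls numbered 16 at C5, 21 for C2 to C4 and 13 for the trend, and 5 rising and 4 falling for C5 against C3 or C4. Beside the values given above, the block added C3 calls of GGT1 in tacedinaline (adjusted p = 0.0458) and SPP1 in scriptaid (0.0412) and valproic acid (0.0424), and ended the trend calls of GGT1 in vorinostat (0.0581) and SPP1 in scriptaid (0.0575). It changed no other call.

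Probes with at most 3 counts per library have no measurable change here, and groups of 2 or 3 libraries limit the precision of the rest.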
